A study of Mus musculus with 2 samples.

Results

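The cytosolic ribosomal protein genes of mouse were followed in CD4 T cells from 2 spleen cell cultures, as the array probes whose gene name is Rpl or Rps with a digit, Rpsa, or Rplp0 to Rplp2. Kinases named Rps6k and names marked as pseudogenes with -ps were left out. This gave 86 of the 24105 named genes on the array and 191 of its 33184 named probes. By name, 46 genes encode proteins of the large subunit, 31 encode proteins of the small subunit, 8 are paralogs of such genes, and 1, Rps19bp1, encodes a protein that binds the small subunit protein Rps19 and is not itself part of the ribosome. The 77 genes of both subunits are called the core genes here.

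The co-culture array held RNA of sorted CD4 T cells from spleen cells of female OVA-TCR-Tg mice, whose T cells carry a transgenic receptor for ovalbumin (OVA). Naive spleen cells at 1250 per μL were mixed with as many cells that had been stimulated before with the bacterial superantigen TSST-1 (0.1 μg/mL), which the labels call anergic, and were kept with OVA (0.1 mg/mL) for 24 h. The naive-only array held CD4 T cells of the same strain, sex and organ from a culture of naive spleen cells alone, at 2500 per μL, after 24 h with the same OVA dose. It is not stated in the labels if sorting separated naive from earlier stimulated cells, how old the mice were, or whether animals were pooled. Each group had 1 array, so the differences are unreplicated and could not be tested.

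Ribosomal proteins bind the ribosomal RNAs to form the large subunit, which joins amino acids, and the small subunit, which reads the mRNA. Most are made in equal numbers, and their mRNAs are among the most abundant of any cell. In vertebrates these mRNAs begin with a stretch of pyrimidines, the TOP motif, through which mTOR signalling controls their translation rather than their amount. Stimulated T cells make many new ribosomes before they divide.

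A level is log2 of the background-subtracted signal minus the array's 75th percentile, and a difference is the co-culture level minus the naive-only level of the same probe. A probe's brightness depends on its sequence, so levels of different probes were not set against each other. The error beside a difference is the scanner software's technical error over both arrays and holds no variation between cultures. It was about 0.20 for bright probes and the same for every core gene, so for these it acts as a fixed limit. Each gene is given by its brightest probe. Of the 86 genes, 84 were well above background on both arrays, as were 186 of the 191 probes, and no member spot was saturated. The median signal of the member spots was 138049 intensity units on the co-culture array and 147186 on the naive-only array.

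For the whole array, 25130 probes were well above background in co-culture and 25742 in naive-only. Over 12932 named genes measured on both arrays, the median difference was -0.04 (SD 0.80 across genes). All 8 T cell markers were measured, with a median difference of 0.30 and a range from -3.06 (Trat1) to 0.90 (Cd3d). The 11 measured B cell markers, of 12, had a median of -1.76 and ran from -5.03 (Ms4a1) to 0.83 (Vpreb3), and 10 of them were at least 2-fold lower, as were 5.19% of all measured named genes. The 6 measured class II antigen presentation genes, of 7, had a median of -2.49. The 9 myeloid and dendritic cell genes had a median of -0.09 and ran from -2.87 (Flt3) to 0.37 (Itgam). Of the CD8 T and natural killer cell markers 3 of 6 were measured, with a median of 0.52, from -0.56 (Cd8b1) to 1.56 (Prf1). Klra8 and Ncr1 of this list were well above background in naive-only cells only. The same held for the B cell marker Pax5 and the class II gene Ciita. Of the erythroid markers 3 of 5 were measured, with a median of -1.09. The part of these cells in the results below was not tested, and in bulk RNA fewer cells of a type cannot be told apart from less RNA per cell.

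The core ribosomal protein genes had nearly the same level in co-culture as in naive-only cells. Over the 77 genes the median difference was -0.08 (SD 0.08 across genes), and the range ran from -0.32 for Rps7 to 0.16 for Rpl39. None was 1.5-fold higher or lower, where 14.2% of all measured named genes were at least 1.5-fold lower and 15.8% at least 1.5-fold higher. Only 4 core genes, Rps7, Rpl34, Rpl35 and Rpl22, differed by more than their technical error, where 67.1% of all measured named genes did.

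Bright probes have less noise, so the core genes were also set beside the 995 other named genes with a mean level of 6 or more. That limit was chosen after the data were seen. The core genes had mean levels from 7.86 (Rps21) to 10.14 (Rps10), so the sets were not matched in brightness. The 995 other genes had a median difference of -0.12 (SD 0.51 across genes). Of them, 9.45% were lower and 7.54% higher by 1.5-fold or more, and 58.0% were beyond the technical error. The largest difference of any core gene was 0.32 in size. Of the 995 other bright genes, 60.2% lay within that size, as did 46.1% of the 12848 other measured genes of any brightness.

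**Figure D1:**
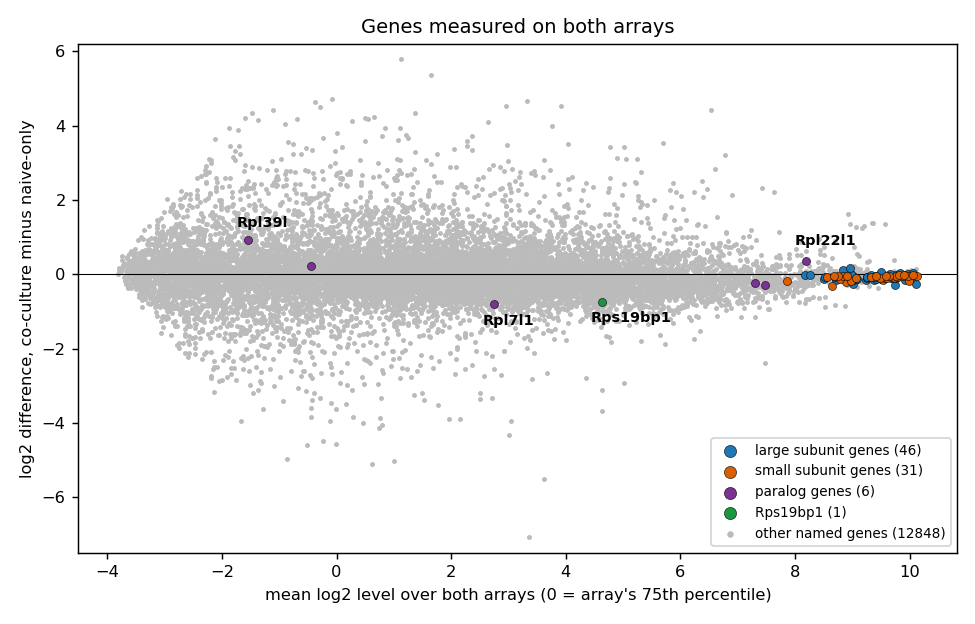
Difference between the arrays (vertical axis, log2, co-culture minus naive-only) against the mean level over both arrays (horizontal axis, log2) for each named gene measured on both, with 1 point per gene. The 46 large and 31 small subunit genes lie at the bright end in a narrow band around -0.08, while Rpl39l, Rpl7l1 and Rps19bp1 stand apart from it.

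The sign of so small a difference depends on where 0 is set. With the 75th percentile, 75 of the 84 measured genes were below 0, against 53.4% of all measured named genes and 66.5% of the other bright genes. With each array's median in place of the 75th percentile, the median of the 84 genes was -0.03 and 54 were below 0. The median of all measured named genes was then 0.01. Setting 0 at the median of the other bright genes adds 0.12 to every difference, which put the median of the 84 genes at 0.04 and left 22 below 0. It put the median of all measured named genes at 0.08. The shares of 53.4% and 66.5% hold for the 75th percentile only. The core genes are therefore described by the size of their differences and not by a direction.

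Differences were small in both subunits. The 46 large subunit genes had a median of -0.09 (SD 0.09 across genes) and the 31 small subunit genes one of -0.07 (SD 0.07 across genes), or 0.04 and 0.05 with 0 set at the other bright genes. All 31 small subunit genes and 40 of the 46 large subunit genes were below 0 with the 75th percentile.

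**Figure D2:**
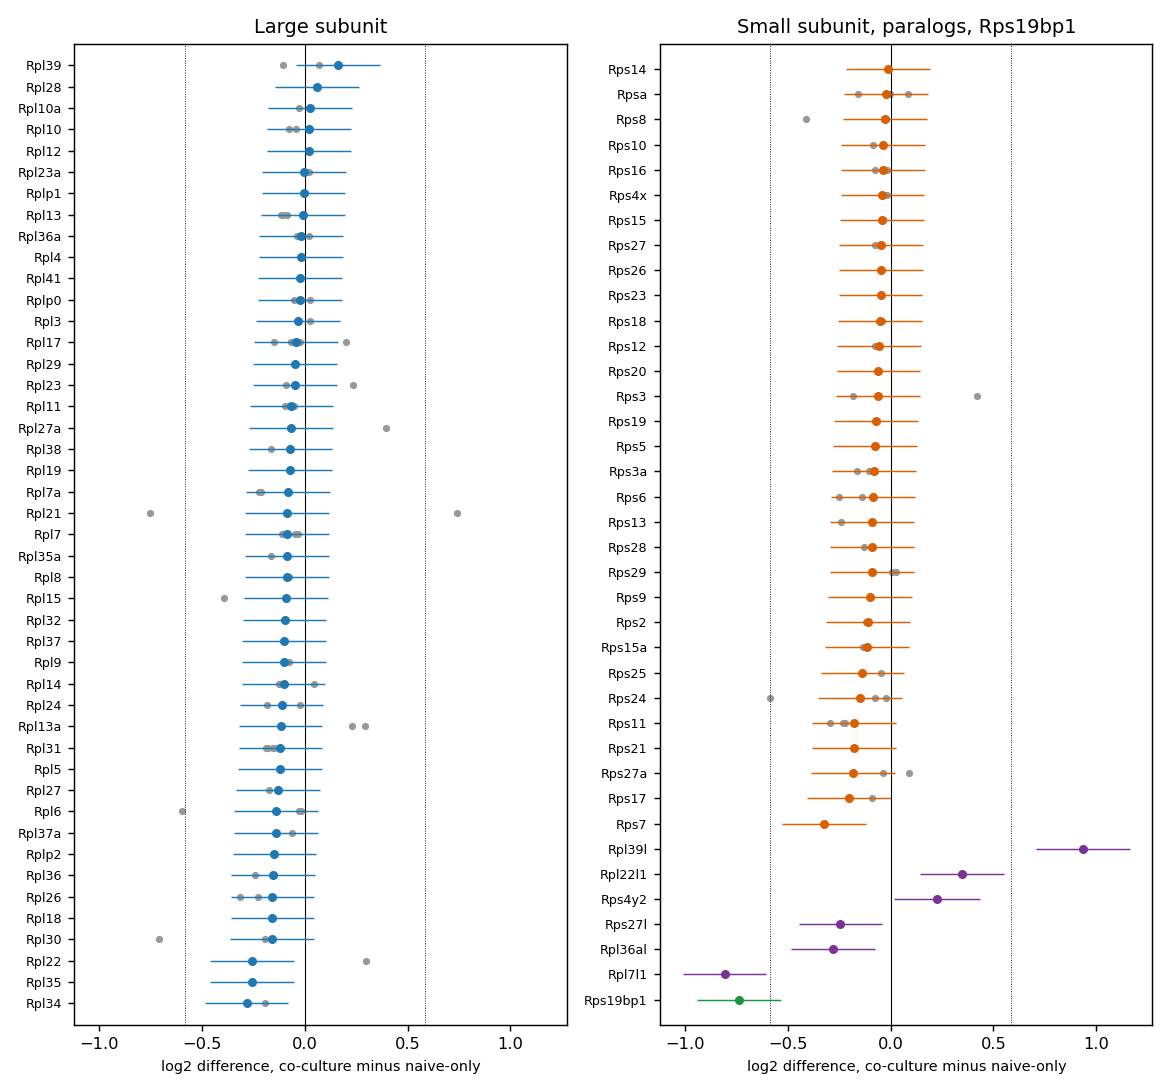
Difference of the measured genes, with 1 left out (coloured point, brightest probe, log2, co-culture minus naive-only) with its technical error as a bar, and its other measured probes as grey points. Dotted lines mark 1.5-fold; the coloured points of all core genes drawn lie inside them, while grey points of Rpl21, Rpl30, Rpl6 and Rps24 lie outside, as do Rpl39l, Rpl7l1 and Rps19bp1.

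Among large subunit genes, Rpl34 had levels of 9.60 in co-culture and 9.89 in naive-only cells, a difference of -0.28 ± 0.20 (technical error). Rpl35, whose protein lies at the exit of the peptide tunnel, had levels of 9.98 in co-culture and 10.24 in naive-only cells (difference -0.26). These were the lowest large subunit genes, and both differences were barely beyond the error.

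Rpl39, whose protein lines the peptide tunnel, was the highest core gene, with 9.05 in co-culture and 8.89 in naive-only cells (difference 0.16). Its other bright probe gave 0.07, and a dim probe with levels of 1.53 in co-culture and 1.63 in naive-only cells gave -0.11.

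Rpl28, Rpl10a and Rpl10 had differences of 0.06, 0.02 and 0.02. All 3 were within the technical error. The sign of each turned under at least 1 of the other settings, where their lowest values were -0.03, -0.003 and -0.04.

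The stalk proteins Rplp0, Rplp1 and Rplp2 bring elongation factors to the large subunit. Rplp0 had levels of 10.01 in co-culture and 10.03 in naive-only cells (difference -0.02), and Rplp1 had 9.66 in co-culture and 9.67 in naive-only cells (difference -0.01). The signs of both turned under other settings, where they reached 0.03 and 0.04. Rplp2 had 9.92 in co-culture and 10.07 in naive-only cells (difference -0.15), within its technical error.

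Among small subunit genes, Rps7, whose protein also binds the p53 regulator Mdm2, had levels of 8.48 in co-culture and 8.80 in naive-only cells. Its difference of -0.32 ± 0.20 was the lowest of the core genes and rested on 1 probe. Rpsa, known also as a laminin receptor, had 9.80 in co-culture and 9.83 in naive-only cells. Its difference of -0.02 turned to 0.02 under another setting, and its 4 probes ran from -0.16 to 0.08.

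Rpl22 is an RNA-binding protein of the large subunit that mice need to form αβ T cells but not to make ribosomes in general, and Rpl22l1 is the paralog that Rpl22 holds down in mouse cells. The probes of this pair are shown because the genes stood on opposite sides of 0. They are 60-base oligos, given 5′ to 3′ with mm9 positions.

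Rpl22 (brightest probe, chr4:151706515-151706574, plus strand): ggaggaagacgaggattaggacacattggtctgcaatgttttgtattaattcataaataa
Rpl22 (other probe, chr4:151708012-151708071, plus strand): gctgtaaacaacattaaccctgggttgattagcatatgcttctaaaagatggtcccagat
Rpl22l1 (chr3:28706237-28706296, plus strand): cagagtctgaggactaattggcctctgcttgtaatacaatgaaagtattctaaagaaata

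Rpl22l1 was higher in co-culture, with a level of 8.37 there and 8.02 in naive-only cells, a difference of 0.35 ± 0.20. Rpl22 was lower, with 8.89 in co-culture and 9.15 in naive-only cells, a difference of -0.26 ± 0.20. The paralog's difference minus its partner's was 0.61 ± 0.29 (technical error), or 1.52-fold, a contrast that a shift of a whole array leaves as it is. The second Rpl22 probe, 1497 bases further along the gene and much dimmer, went the other way with levels of 2.45 in co-culture and 2.15 in naive-only cells (difference 0.30). With the median over probes the Rpl22 difference was 0.02, so its direction rests on the choice of probe.

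Rpl39l, a paralog of Rpl39 known from mouse testis, was the member with the highest difference. It had levels of -1.08 in co-culture and -2.02 in naive-only cells, a difference of 0.93 ± 0.23, or 1.91-fold higher. Its signal was low on both arrays, and with another background correction the difference was 0.53. It was 0.77 ± 0.31 above the difference of Rpl39.

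Rpl7l1, named for its likeness to Rpl7, was the lowest member. It had levels of 2.34 in co-culture and 3.15 in naive-only cells, a difference of -0.81 ± 0.20, or 1.75-fold lower, where Rpl7 differed by -0.09. Its difference minus that of Rpl7 was -0.72 ± 0.29. The mean level of Rpl7l1 was 2.75. Core probes under a mean level of 6 spread more widely (SD 0.42 across probes), at a median technical error of 0.20. Rpl39l and Rpl7l1 each had 1 measured probe, shown here because the differences rest on it.

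Rpl39l (chr16:10174657-10174716, plus strand; capitals mark a polyadenylation signal, AATAAA): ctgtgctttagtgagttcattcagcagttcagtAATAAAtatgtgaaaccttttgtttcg
Rpl7l1 (chr17:46912582-46912641, minus strand): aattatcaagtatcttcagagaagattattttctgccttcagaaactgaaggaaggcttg

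**Figure D3:**
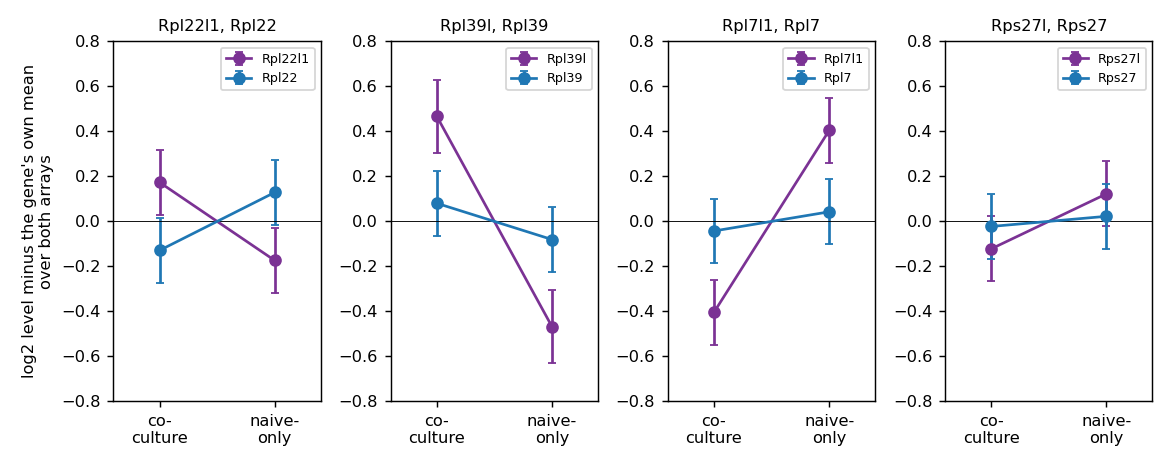
Levels of 4 paralogs and their partners on the co-culture array (left) and the naive-only array (right). Each is the log2 level minus the gene's own mean over both arrays. Bars split the technical error of the difference evenly between the arrays. Rpl22l1 and Rpl39l are higher in co-culture, Rpl7l1 is lower, and Rpl39, Rpl7 and Rps27 lie near 0.

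The other paralogs differed less. Rps27l, a p53 target, had 7.17 in co-culture and 7.42 in naive-only cells (difference -0.24 ± 0.20), where Rps27 differed by -0.05. Rpl36al had 7.34 in co-culture and 7.62 in naive-only cells (difference -0.28 ± 0.20), where Rpl36a differed by -0.02. The gaps of -0.20 and -0.26 to their partners were both within a technical error of 0.29. The gene listed as Rps4y2, which RefSeq now names Rps4l and calls a transcribed pseudogene, had -0.33 in co-culture and -0.56 in naive-only cells (difference 0.23 ± 0.21). Its signal was also low, and with the other background correction the difference was 0.08.

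Rpl10l replaces Rpl10 in male germ cells of mouse, and Rpl3l stands for Rpl3 in heart and skeletal muscle. Of 2 Rpl10l probes, 1 was well above background in co-culture only, with a level of -2.12, at least 3.71-fold higher than in naive-only cells, where its signal of -6.23 was not well above background. Such a fold is the co-culture level over the lowest level that is well above background on the other array. The other Rpl10l probe and the Rpl3l probe were not well above background on either array.

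Rps19bp1, which also takes part in small subunit assembly, had levels of 4.27 in co-culture and 5.01 in naive-only cells. Its difference of -0.74 ± 0.20 made it 1.67-fold lower. Of the 84 measured members, Rpl7l1 and Rps19bp1 were at least 1.5-fold lower and Rpl39l at least 1.5-fold higher. Over all measured named genes, 14.2% were at least 1.5-fold lower and 15.8% at least 1.5-fold higher. No member reached 2-fold, where 5.19% of all measured named genes were at least 2-fold lower and 8.27% at least 2-fold higher.

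Different probes of a core gene gave nearly the same difference as long as both were bright. Over 125 such pairs in 53 genes the median gap was 0.05 and the highest, within Rpl13a (named after its values were seen), was 0.41. The 136 bright probes of these genes had a pooled SD of 0.06 within genes, and the gene means had an SD of 0.08. Bright probes of different core genes thus also lay close, so the small gaps do not show agreement particular to a gene. With 0 as set by the main scaling, all bright probes were below 0 in 41 of the 53 genes. In 3 genes all were above 0, and in 9 they took both signs. With the same 0, 53.4% of all measured named genes and 66.5% of the other bright genes were below 0. These counts change with where 0 is set and are not a measure of agreement between probes. The 16 bright pairs that share at least 30 bases had a median gap of 0.04, and the 109 that share fewer had one of 0.05. Probes of a gene that share bases cannot be counted as independent.

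Rpl7a is shown because 2 of its probes are given the same mm9 position, chr2:26768759-26768818 on the plus strand, yet differ at 6 bases, in capitals.

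Rpl7a (first probe): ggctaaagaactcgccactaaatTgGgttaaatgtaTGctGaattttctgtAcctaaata
Rpl7a (second probe): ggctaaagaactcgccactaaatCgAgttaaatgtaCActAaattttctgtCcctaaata

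The first of these probes had levels of 8.94 in co-culture and 9.03 in naive-only cells (difference -0.08), and the second 7.49 in co-culture and 7.72 in naive-only cells (difference -0.22). The gap of 0.14 was within the technical error.

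The larger differences of core genes came from dim probes. The 160 core probes with a mean level of 6 or more ran from -0.32 to 0.29 (SD 0.09 across probes) and none passed 1.5-fold. The 19 measured core probes under that level, of 18 genes, ran from -0.75 to 0.74 (SD 0.42 across probes), and 4 were at least 1.5-fold lower and 1 higher. That share is close to the 31.4% of all named probes under this level that passed 1.5-fold either way. Of the 19, 15 lay 202 to 2227 bases downstream of the gene's brightest probe and 4 lay upstream.

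**Figure D4:**
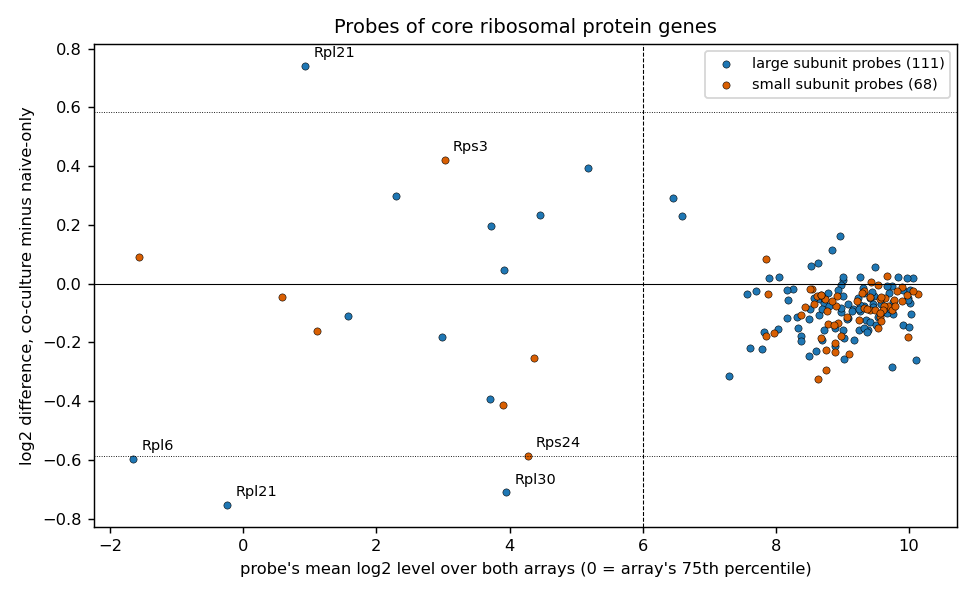
Difference (vertical axis, log2, co-culture minus naive-only) against the probe's own mean level (horizontal axis, log2) for 111 large and 68 small subunit probes, with 1 point per probe. The dashed line marks a mean level of 6 and the dotted lines 1.5-fold; right of the dashed line no probe passes 1.5-fold, and left of it Rpl21, Rpl30, Rpl6 and Rps24 do.

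Rpl21 had the widest span. Its brightest probe, with 8.48 in co-culture and 8.56 in naive-only cells, differed by -0.08. The probe 1537 bases further along had 1.30 in co-culture and 0.56 in naive-only cells (difference 0.74), and the probe 2227 bases further along had -0.61 in co-culture and 0.14 in naive-only cells (difference -0.75). The dim probes thus took opposite signs within the same gene.

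Rpl21 (brightest probe, chr5:147646040-147646581, plus strand): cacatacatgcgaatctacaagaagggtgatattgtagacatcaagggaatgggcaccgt
Rpl21 (higher in co-culture, chr5:147647577-147647636, plus strand): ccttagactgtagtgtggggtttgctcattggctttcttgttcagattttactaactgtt
Rpl21 (lower in co-culture, chr5:147648267-147648326, plus strand): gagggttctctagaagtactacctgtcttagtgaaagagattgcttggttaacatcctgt

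The position given for the brightest probe spans more than its 60 bases, as a probe across a splice junction would. Of the genes named here after their values were seen, Rpl30 had a dim probe upstream with 3.59 in co-culture and 4.31 in naive-only cells (difference -0.71), while its bright probes gave -0.16 and -0.20. Rps24 had a dim probe with 3.98 in co-culture and 4.56 in naive-only cells (difference -0.59), while its other 3 probes ran from -0.15 to -0.02. Rpl6 had a dim probe with -1.95 in co-culture and -1.35 in naive-only cells (difference -0.60), while its other 3 ran from -0.14 to -0.02. The dim Rps24 probe and its bright neighbour list different RefSeq transcripts and are shown for that reason.

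Rps24 (dim probe, chr14:25312695-25315015, plus strand): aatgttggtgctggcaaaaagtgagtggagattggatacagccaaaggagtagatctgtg
Rps24 (bright probe, chr14:25311190-25312666, plus strand): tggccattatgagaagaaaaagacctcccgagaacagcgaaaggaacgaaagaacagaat

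Many ribosomal protein genes have copies elsewhere in the genome, and 17 member probes list accessions of at least 2 genes. The files place 11 probes of 5 genes on another chromosome than the gene, and all probes of Rps27 and Rps29 are among them. Signal of these genes cannot be told apart from that of such copies. Without these probes, and without 1 unplaced probe, the median of the remaining 82 genes was -0.08.

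Of ribosomal proteins with other names, Fau and Gnb2l1 were as level as the core genes. Fau, which encodes a ribosomal protein fused to a ubiquitin-like protein, had 10.05 in co-culture and 10.06 in naive-only cells. Gnb2l1, which encodes the ribosomal scaffold Rack1, had 9.77 in co-culture and 9.69 in naive-only cells. Both were within the technical error.

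Genes that build ribosomes differed far more than the genes of the ribosome itself. All 40 genes of the ribosome biogenesis list were below 0, with a median of -0.83. Of them, 31 were at least 1.5-fold lower and none at least 1.5-fold higher. Over all measured named genes 53.4% were below 0, 14.2% at least 1.5-fold lower and 15.8% higher. Pes1, which acts in the maturation of large subunit rRNA, had 1.29 in co-culture and 3.0 in naive-only cells, 3.29-fold lower. Nat10, which acetylates rRNA, had 3.91 in co-culture and 5.31 in naive-only cells, 2.65-fold lower. The list's highest genes were Rrp1 (difference -0.34) and Ubtf, the RNA polymerase I factor (difference -0.31).

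The mitochondrial ribosomal proteins, which make the ribosomes inside mitochondria, lay between. Of 76 genes, 69 were below 0, the median was -0.32, 16 were at least 1.5-fold lower and 0 at least 1.5-fold higher. Over all measured named genes 53.4% were below 0, 14.2% at least 1.5-fold lower and 15.8% higher. Mrpl3 had 5.0 in co-culture and 5.89 in naive-only cells, 1.85-fold lower, and Mrpl15 was 1.83-fold lower. Mrpl4 and Mrpl10 were the highest, with differences of 0.43 and 0.42. Of the 76 genes, 17 had a mean level of 6 or more. With 1 array a group, none of these gaps between lists was tested.

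**Figure D5:**
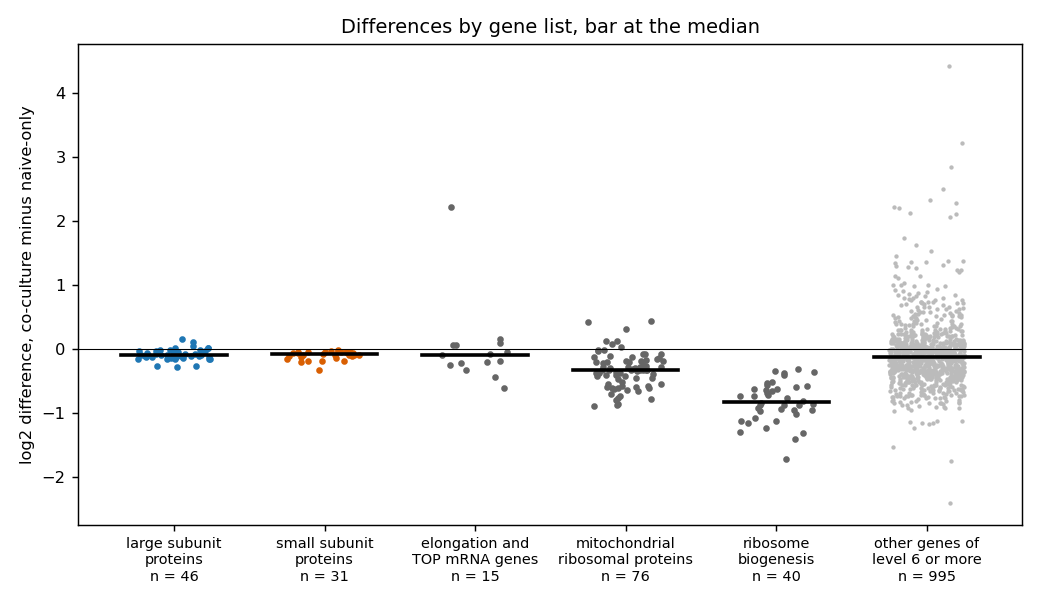
Difference of each measured gene (log2, co-culture minus naive-only) by gene list, with a black bar at the list's median. The large and small subunit genes crowd close to 0, the ribosome biogenesis genes all lie below 0, and the mitochondrial ribosomal proteins lie between. The lists are not matched in brightness.

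The 15 genes of translation elongation and other TOP mRNAs had a median of -0.09. Vim, which encodes the filament protein vimentin, had 7.34 in co-culture and 5.12 in naive-only cells, 4.66-fold higher, and Eef1d, an elongation factor subunit, had 8.22 in co-culture and 8.82 in naive-only cells, 1.52-fold lower. Eif3h and Eif3e, subunits of an initiation factor, had differences of 0.16 and -0.44.

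Of 18 regulators of ribosome production through mTOR and Myc, 16 were measured, with 3 genes past 1.5-fold in each direction, a share near the 14.2% lower and 15.8% higher of all measured named genes. Values of its extreme genes are given as a description. Eif4ebp1, an inhibitor of cap-dependent translation that mTOR switches off, had 7.04 in co-culture and 4.82 in naive-only cells, 4.65-fold higher. Mxd3 had 1.1 in co-culture and -3.33 in naive-only cells, 21.6-fold higher, from a signal near background in naive-only cells. Max, the partner of Myc, was 2.07-fold lower, and Mxd1, which competes with Myc for Max, 2.95-fold lower.

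Promoters of core genes held some motifs more often than those of all genes, in letters that the choice by name did not use. RefSeq promoters (GRCm38.p6) matched 56 of the 77 core genes. From 15 bases before to 30 after the annotated start, CTCTTT stood on the gene's strand in 10 of 56 (17.9%), against 1.83% of 27025 genes with such a window, and on the other strand in 0 of 56, against 1.89%. It stood on the gene's strand in 1 of 69 mitochondrial ribosomal protein promoters (1.45%) and 0 of 36 ribosome biogenesis promoters. Windows of 5 of the 10 core genes with CTCTTT are shown as examples. They are cut around CTCTTT, in capitals, and do not mark the annotated start.

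Rps6 (chr4:86857350-86857379, minus strand): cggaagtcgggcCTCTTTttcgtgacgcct
Rpl28 (chr7:4792953-4792982, plus strand): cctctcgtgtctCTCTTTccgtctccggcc
Rpl35 (chr2:39005114-39005143, minus strand): ccccgccctttcCTCTTTctctcgaaccag
Rpl35a (chr16:33056470-33056499, plus strand): gggcttgccttcCTCTTTccgccatcttgg
Rpl18 (chr7:45718060-45718089, plus strand): tctcgcaggccgCTCTTTccccgcccactc

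The 10 core genes with CTCTTT near the start had a median difference of -0.11, and the 46 without it one of -0.07. CTTCCG, the core of ETS factor motifs, stood on either strand of the 300-base promoter in 39 of 56 core genes (69.6%), against 18.8% of all genes, 56.5% of mitochondrial ribosomal protein genes and 52.8% of ribosome biogenesis genes. The motifs are descriptions of these letters and were not tied to the differences by a test.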

How the data were processed

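Groups were taken from the sample titles. RNA amplification used the Ovation system V2, and its cDNA was labelled enzymatically with Cy3, per the labels' protocols. Both arrays came from the same slide and scan. The deposited spot intensity came from Agilent Feature Extraction, version 10.7.1.1 per the file headers and 9.5.1.1 per the submitters' processing notes. The processed intensity is background-subtracted, per the file headers. The authors' value table (median 14.5 in both columns) holds normalized intensity, used as an alternative. Its ranks matched the scanner values (Spearman correlation 1).

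Intensity was put on the log2 scale, averaged over a probe's spots, and reduced by the 75th percentile of the array's 55681 noncontrol probes (301.3 in co-culture, 299.4 in naive-only). A gene is its probe with the highest mean level among those well above background on both arrays. No filter used the difference. No test was possible with 1 array a group, whose number limits the precision.

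The member rule, the gene lists and the paralog pairs were chosen with earlier results of these data known. Genes were named by a rule: the 8 highest and 8 lowest members, all paralogs, the stalk genes and Rpsa, genes with probes spanning over 1, genes above background on 1 array, and 2 genes per direction and list. Of the genes this rule took, 2 are not reported here. Other named genes were chosen after their values were seen. All 86 gene names were found in RefSeq, which changed 2. The file headers give mm9 for the probe positions, whose exon annotation was not used. The calculation was tested on simulated data. Python 3.11.15, numpy 2.4.6, pandas 2.3.3, matplotlib 3.10.9 and R 4.3.3 with limma 3.58.1 were used.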

Additional observations from a re-analysis of the deposited data

How the results depend on the processing

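No paired analysis was possible because each group had 1 array, and for the same reason no array could be left out. The alternatives were normexp background correction, quantile normalization, the authors' table, other scaling, other filters on dim probes, leaving out flagged spots, the median over probes, and the median over core genes or over probes. Under these the median of all members stayed below 0, between -0.09 and -0.03. The medians of large and of small subunit genes also stayed below 0, though the median over core genes or over probes was not run for them. Quantile normalization and the authors' table each gave a median of -0.07 over all members and 68 genes below 0, so they are nearly the same alternative. The values nearest 0 came with each array's median in place of the 75th percentile (-0.03 over all members, -0.036 and -0.025 for large and small subunit genes), where 54 genes were below 0, and with the percentile over probes above background 60 were. Centred on other genes of level 6 or more, an alternative chosen after seeing the data, they were 0.037, 0.036 and 0.046, and the number of genes below 0 was 22. That centring is a constant shift, and it moved the median of all genes by 0.12, and using no filter on dim probes moved it by 0.15. The number of genes at least 1.5-fold higher was 2 without the filter, 0 with normexp and 0 with only probes above the 75th percentile, and without the filter 1 gene was at least 2-fold higher. Of 187 values of named genes under alternatives, 185 stayed within their technical error of the reported value. The exceptions were Rpl22, at 0.02 with the median over probes, and Rpl39l, at 0.53 with normexp. The technical error of about 0.20 was the same for every core gene. It was wider than the pooled SD of 0.06 within genes over bright core probes, so it is a fixed limit and not a spread measured here. Variation between cultures was not measured.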
